A study of Rattus norvegicus with 24 samples.

Results

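Sik1, the NR4A nuclear receptors (Nr4a1, Nr4a2 and Nr4a3), Crem, the phosphodiesterases Pde4b and Pde4d, and Rgs2 were followed in peripheral blood mononuclear cells (PBMC) of rats with and without arthritis. The probe sets taken were those that the annotation of the array pairs with a single gene carrying one of these 8 symbols, 21 of the 31099 probe sets of the table and 8 of its 14217 genes. Each probe set is described apart. Sik1 was chosen by its measured level in healthy rats at baseline, and the other genes with results of these arrays known, so that differences from healthy baseline are given as a description with no test.

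Expression was measured on Affymetrix whole-genome rat arrays in PBMC of female Wistar rats, on 24 arrays that form 12 groups of 2. Rats with collagen-induced arthritis (CIA, named RA in the labels), immunized with bovine type II collagen in Freund's adjuvant, were sampled before therapy, and 4 CIA arms were sampled at 1 h and at 34 d after therapy. MS rats (AP/MEC in the labels) were punctured with a needle that was twirled under the skin, MTX rats had methotrexate by peritoneal injection, ANE rats had isoflurane at blood sampling, in place of the ether of the MS, MTX and PLA arms, and no other therapy, and PLA rats had saline by peritoneal injection. Healthy rats without CIA (NOCIA, named NORA in the labels) were sampled at baseline, at 1 h and at 34 d. Sampling was terminal in every group, under deep anesthesia, so each time point held other rats. The labels give no ages and do not say what sets the 2 replicates of a group apart, so p-values measure the spread between these arrays. The arthritis of the model is induced by immunization and not spontaneous.

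Cyclic AMP (cAMP), made by adenylyl cyclases downstream of hormone, prostaglandin and adenosine receptors, activates protein kinase A, which phosphorylates the transcription factor CREB at cAMP response elements. Sik1 is a salt-inducible kinase, itself transcribed through CREB, that restrains the CREB coactivators of the CRTC family. The NR4A receptors are orphan nuclear receptors transcribed within minutes to hours of stimulation, Crem encodes activators and, from an internal promoter, the repressor ICER, Pde4b and Pde4d degrade cAMP, and Rgs2 speeds the shut-off of G proteins. In leukocytes these genes are known as early responders to cAMP and to cell activation.

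Promoter sequence is shown for Crem, whose probe sets vary together below, and for Sik1 and Nr4a1, textbook CREB targets. The sequences are the 250 bases before a RefSeq transcript start (rat assembly GRCr8), 5′ to 3′ on the strand of the gene, with capitals for the shorter site TGACG or its reverse complement CGTCA of the cAMP response element (TGACGTCA in full). The Crem windows are at chr17:58984547-58984796 and chr17:58985240-58985489 (both on the plus strand), that of Sik1 is at chr20:9958647-9958896 (minus strand) and that of Nr4a1 at chr7:134259888-134260137 (plus strand).
Crem, window 2: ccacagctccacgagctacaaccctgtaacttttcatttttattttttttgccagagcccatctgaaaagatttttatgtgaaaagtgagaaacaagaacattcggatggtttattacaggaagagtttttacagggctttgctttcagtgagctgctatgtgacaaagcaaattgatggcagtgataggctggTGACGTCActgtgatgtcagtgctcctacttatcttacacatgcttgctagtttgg
Crem, window 3: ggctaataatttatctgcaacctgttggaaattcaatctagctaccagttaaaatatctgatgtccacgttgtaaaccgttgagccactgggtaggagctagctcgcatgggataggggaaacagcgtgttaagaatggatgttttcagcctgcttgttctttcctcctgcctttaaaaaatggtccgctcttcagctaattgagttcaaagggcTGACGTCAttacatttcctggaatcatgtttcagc
Sik1: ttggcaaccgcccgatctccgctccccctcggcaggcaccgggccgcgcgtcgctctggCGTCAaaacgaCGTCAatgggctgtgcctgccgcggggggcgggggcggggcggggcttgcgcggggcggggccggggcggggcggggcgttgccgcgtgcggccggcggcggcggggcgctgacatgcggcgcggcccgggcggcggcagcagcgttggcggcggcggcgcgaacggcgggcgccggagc
Nr4a1: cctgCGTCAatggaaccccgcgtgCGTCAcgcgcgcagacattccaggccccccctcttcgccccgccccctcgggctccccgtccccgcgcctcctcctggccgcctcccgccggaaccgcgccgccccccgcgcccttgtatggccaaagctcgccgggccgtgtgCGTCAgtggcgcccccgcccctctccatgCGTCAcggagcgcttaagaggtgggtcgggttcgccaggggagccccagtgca
Counted from the transcript start, the full element began at -56 in Crem window 2 and at -35 in window 3, where a further copy began at 40, beyond the letters shown. Sik1 held the shorter site alone, 2 times, and Nr4a1 held it 4 times. Over windows of 300 bases, which add the first 50 bases of the transcript, 1.83% of all 33469 RefSeq rat windows held TGACGTCA and 21.2% held TGACG on either strand, a match to the full element counting as a match to the shorter site too. Of 14 windows of 7 members, 9 held the shorter site and 2 the full element, and Nr4a3 had no window in the table. The 8 letters AAAGGTCA, the element bound by NR4A monomers, occurred in 0 of these 14 windows, against 1.43% of all windows. A match of letters is a description and not a measured binding site.

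The values are log2 expression levels (RMA) and differences between groups are on the same scale, with the SE from limma. That SE pools the spread of a probe set over the 12 groups, which spread unequally. Over all tested probe sets the SD of rep 1 minus rep 2 was 0.88 in MS 1 h, 0.84 in MS 34 d and 0.73 in ANE 1 h. It was 0.23 in NOCIA baseline and 0.28 in PLA 34 d. The SE and p-values can thus understate the spread of MS and ANE 1 h arrays. Calls were made at an adjusted p under 0.05 (limma, Benjamini-Hochberg over 20690 probe sets), and the thresholds of the study (unadjusted p under 0.05 and over 2-fold) are given as a further count. The study describes MAS5 intensities and also removed probe sets with an absent detection call, a step not taken here. Counts at its thresholds are thus not those of its own procedure. All 21 member probe sets passed the filter on low values, 19 of them above the 40th percentile in all 24 arrays. Replicates are written rep 1 and rep 2. MS 34 d rep 1, MS 1 h rep 1, ANE 1 h rep 1 and PLA 1 h rep 2 had the highest platelet marker levels (1.30, 1.13, 0.90 and 0.98), and some counts below are also given without these 4 arrays. The level of a marker list is the mean of its genes after centring each gene over the 24 arrays. Platelet markers (14 of 18 measured) ran from -0.68 to 1.30, T cell markers (9 of 10) from -1.71 to 0.62 and neutrophil markers (6 of 8) from -1.30 to 2.60, the last at its highest in ANE 1 h rep 2, which is not among the 4. T cell (Cd3e), monocyte (Lyz2) and B cell (Ms4a1) genes were on the array and passed the filter, as did platelet Pf4 and red cell Hbb.

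Sik1 gave 2 unlike readings. Probe set 1368597_at read 4.91 to 5.61 across 22 arrays, but 8.74 and 8.81 in the remaining ones, those of NOCIA baseline rats. The NOCIA baseline level thus stood apart from every other group, while 0 of the 10 other steps in the order of group means separated their groups. Probe set 1368596_at read 9.35 and 9.39 in NOCIA baseline rats, the highest mean as well, yet its lowest arrays were MS 34 d rep 1 at 7.51 and MS 1 h rep 1 at 8.22. CIA baseline minus NOCIA baseline was -3.53 at 1368597_at, with 5.31 and 5.18 in CIA baseline rats. At 1368596_at the CIA baseline rats read 9.33 and 9.02, both below the NOCIA baseline arrays. Over the 24 arrays the Sik1 probe sets correlated at r = 0.25, and at r = -0.42 over the 22 arrays that leave NOCIA baseline out. The 22 low arrays of 1368597_at lay close to the 40th percentile of the arrays (4.83 to 5.06), so the size of the difference rests on readings not shown to be well above background. Where the probes lie on the transcript was not used here, so which form of Sik1 each reads was not tested.

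**Figure D1:**
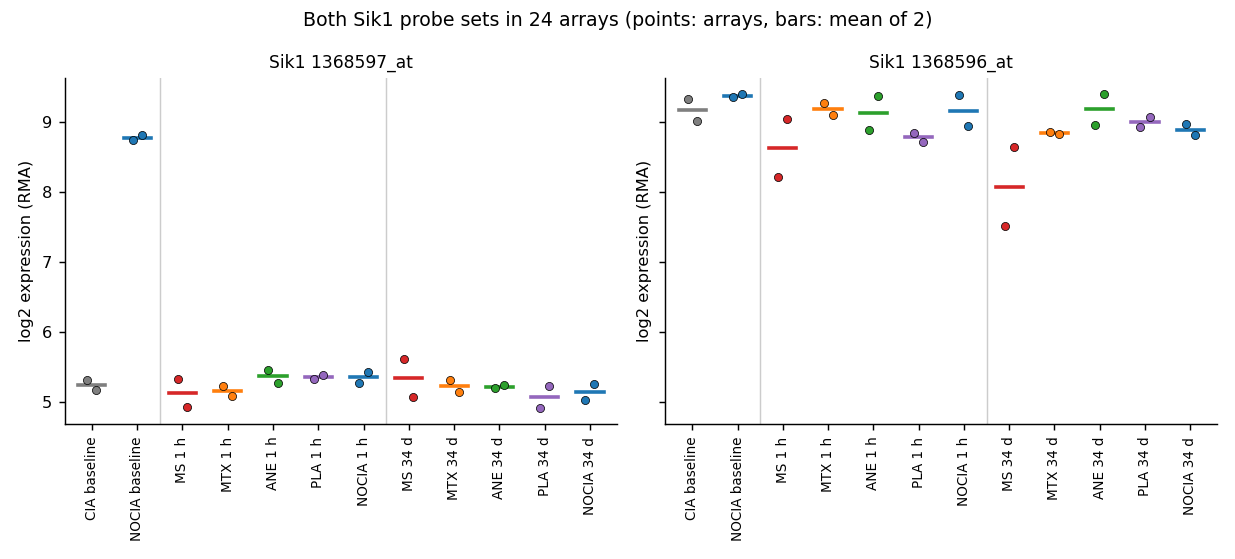
Log2 expression (vertical axis) of both Sik1 probe sets array by array in 12 groups (horizontal axis), with points for arrays and bars for the mean of 2. At 1368597_at only the NOCIA baseline points (8.74 and 8.81) leave the band between 4.91 and 5.61, whereas at 1368596_at the lowest point is MS 34 d rep 1 at 7.51.

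Nr4a3 also disagreed between its 3 probe sets. Probe set 1369067_at had the widest range of all 21, 3.94 and 3.90 in NOCIA baseline rats and up to 8.15 in MS 1 h rep 2. It read 5.70 and 4.63 in ANE 1 h, 5.78 and 6.10 in ANE 34 d, 5.86 and 5.98 in CIA baseline, and 8.11 and 7.42 in NOCIA 34 d rats. NOCIA baseline was again free of overlap with every other group, and 1 of 11 neighbouring groups in the order of means was apart. Probe set 1393389_at followed it (r = 0.94 over 24 arrays), between 5.33 and 7.71. Probe set 1369217_at did not (r = 0.44 with 1369067_at): it ranged from 6.21 in MS 34 d rep 1 to 8.25 in MS 1 h rep 2, and 0 of its 11 neighbouring groups were apart.

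Nr4a1, the founding member of the family and an immediate early gene of lymphocyte receptor signaling, was measured by 1 probe set, 1386935_at. Its lowest arrays were MS 34 d rep 1 at 7.51 and MS 1 h rep 1 at 7.59, and its highest was NOCIA 1 h rep 1 at 9.61. By group it was highest in ANE 1 h (9.49 and 9.34) and lowest in MS 34 d (7.51 and 8.56). Nr4a2 was highest in MTX 1 h rats at both probe sets, 7.83 and 8.08 at 1369007_at and 6.27 and 6.40 at 1387410_at. It was lowest in MS 34 d at 1369007_at (6.55 and 6.69) and in NOCIA baseline at 1387410_at (5.35 and 5.26), and the pair correlated at r = 0.71.

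The 6 Crem probe sets shared a pattern, with r between 0.51 and 0.98 for each pair. Probe set 1393550_at read 5.06 and 6.0 in ANE 1 h, 6.23 and 6.16 in NOCIA baseline and 6.44 and 6.80 in ANE 34 d, the 3 lowest groups. It was highest in PLA 1 h (8.09 and 7.17) and NOCIA 34 d (7.68 and 7.48). ANE 1 h was the lowest of the 12 groups at 4 of the 6 probe sets and NOCIA baseline at the others. For 1393550_at, 4 of 11 neighbouring groups in the order were apart, the most of any member. The NOCIA 1 h arrays were unlike each other, at 6.40 in rep 1 and 7.62 in rep 2.

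Pde4d had the pattern of Crem at 1368750_a_at and 1370569_at. Probe set 1368750_a_at read 6.75 and 5.49 in ANE 1 h, 6.14 and 6.73 in ANE 34 d, 6.11 and 5.96 in NOCIA baseline, and 8.23 and 8.10 in NOCIA 34 d rats. Its 1370569_at tracked this probe set (r = 0.95), and 1392968_at less so (r = 0.51). At 1392968_at ANE 1 h was again the lowest group, but ANE 34 d (8.70 and 8.86) was not below PLA 34 d (8.55 and 8.88). Pde4b, the other cAMP phosphodiesterase and the one most tied to inflammatory activation of monocytes, was lowest in single arrays of 3 groups. Probe set 1369044_a_at read 6.71 in MS 34 d rep 1, 6.82 in MS 1 h rep 1 and 6.84 in ANE 1 h rep 1, against 7.96, 9.23 and 8.91 in the rep 2 arrays of these groups.

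Rgs2, a regulator of G protein signaling, varied little outside MS. Probe set 1387074_at read 9.95 in MS 34 d rep 1 and 10.09 in MS 1 h rep 1, whereas the remaining 22 arrays lay at 11.31 to 11.97. Probe set 1368144_at had the same 2 low arrays, at 9.27 and 9.26, with the others between 10.34 and 11.35.

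**Figure D2:**
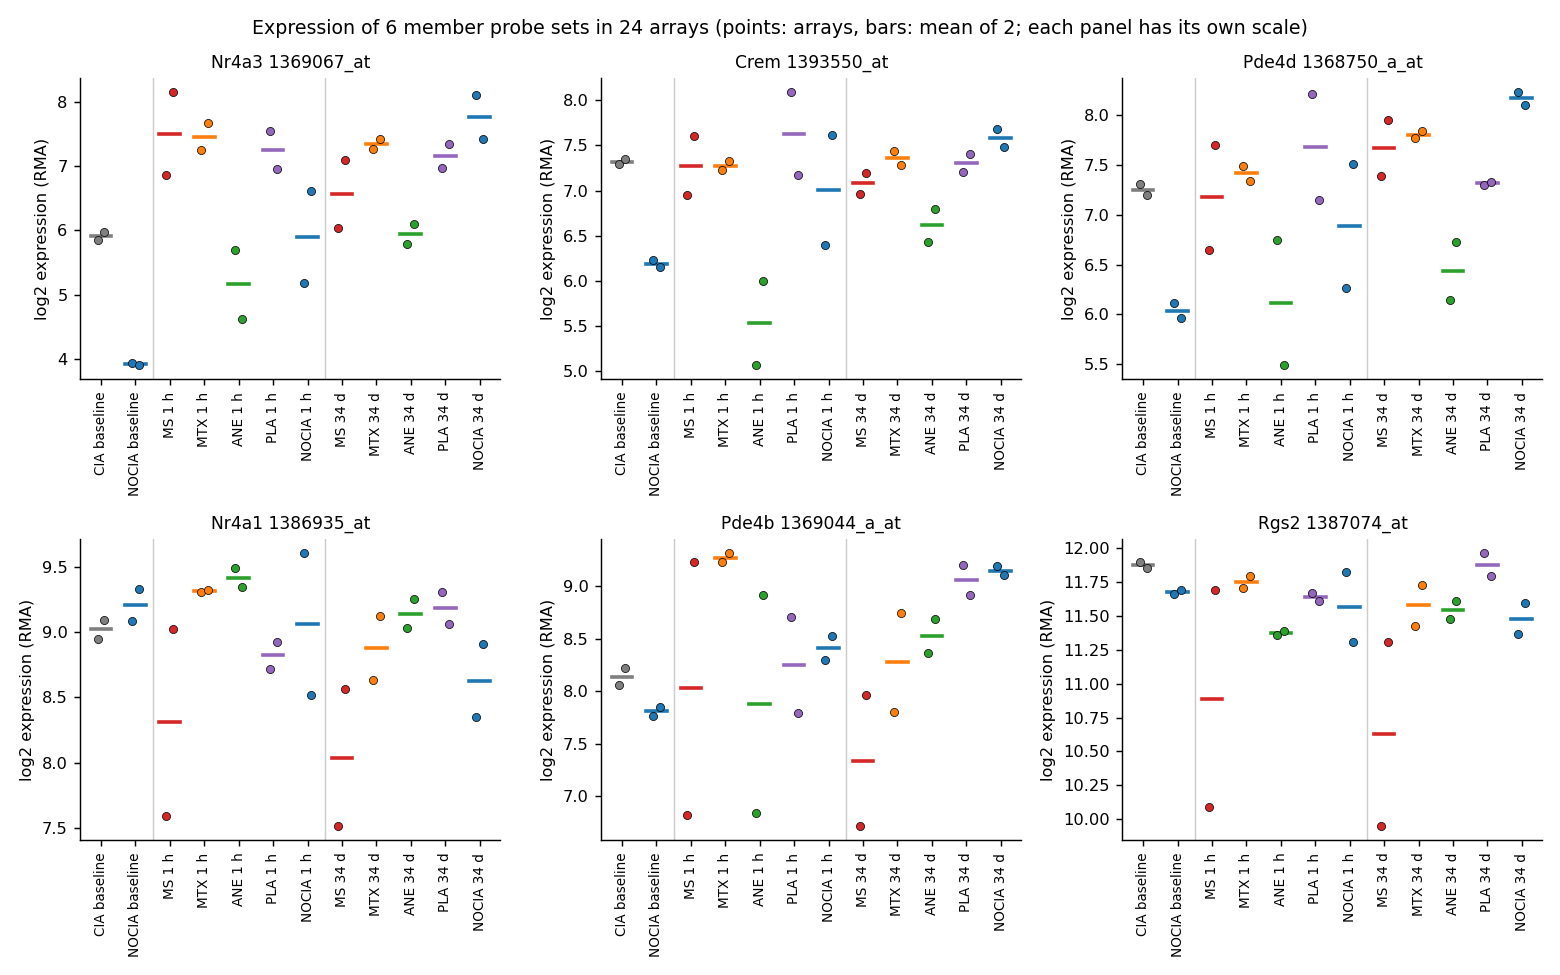
Log2 expression (vertical axis, own scale in each panel) of 6 member probe sets array by array in 12 groups (horizontal axis), with points for arrays and bars for the mean of 2. The upper panels (Nr4a3, Crem, Pde4d) are low in NOCIA baseline and in both ANE groups. In the Nr4a3 panel the means of NOCIA 1 h (5.90) and CIA baseline (5.92) are as low as that of ANE 34 d (5.94). The lower panels (Nr4a1, Pde4b, Rgs2) are lowest in a single array of MS 1 h and of MS 34 d.

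Rats sampled under isoflurane were set against saline-injected rats to see what the anesthetic control arm did to these genes, although the injection differs between these arms too. In ANE 1 h, Crem, Pde4d and Nr4a3 at 1369067_at and 1393389_at read lower than in PLA 1 h. Of the 21 probe sets 18 were lower, 14 of them with no overlap between groups, against 14.9% of all probe sets lower with no overlap. The median difference of the members was -0.71, against 0.01 over all probe sets. At the thresholds of the study 8 were lower and 0 higher, against 1.38% of all probe sets lower. limma called 0 of the 21 (0.0242% of all probe sets in either direction). An unadjusted p under 0.05 was reached by 10 of them (6.67% of all probe sets), with a lowest adjusted p of 0.0848, and limma-trend with robust eBayes also called 0.

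Crem 1393550_at had the largest difference, with 5.06 and 6.0 in ANE 1 h and 8.09 and 7.17 in PLA 1 h, a difference of -2.10 ± 0.38 (SE, adjusted p = 0.0848). Nr4a3 1369067_at, with 5.70 and 4.63 in ANE 1 h and 7.55 and 6.95 in PLA 1 h, differed by -2.09 ± 0.50 (adjusted p = 0.187). Neither pair of groups overlapped. The Nr4a3 reading of 4.63, in ANE 1 h rep 2, lay below the 40th percentile of the arrays (4.83 to 5.06). The size of that difference thus rests in part on a reading not shown to be above background. The same array is the one left in ANE 1 h without the 4 arrays of high platelet markers. Nr4a3 1369217_at overlapped between the groups, at 7.27 and 6.63 in ANE 1 h and 7.38 and 6.84 in PLA 1 h. Crem 1369737_at differed by -2.06 ± 0.42, 1378925_at by -1.87 ± 0.40 and 1396545_at by -1.23 ± 0.51 (adjusted p = 0.130, 0.146 and 0.642). The Pde4d probe sets differed by -1.56 ± 0.46 at 1368750_a_at, -1.35 ± 0.44 at 1392968_at and -1.24 ± 0.37 at 1370569_at (adjusted p = 0.325, 0.437 and 0.323). The members that went the other way were Nr4a1 (9.49 and 9.34 in ANE 1 h, 8.72 and 8.93 in PLA 1 h) and Sik1 at both probe sets, none of them past either threshold.

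The ANE 1 h arrays differed strongly in cell markers. Erythroid markers were lower with no overlap, at -0.95 in rep 1 and 0.15 in rep 2, against 0.62 and 0.58 in PLA 1 h. Neutrophil markers stood at -1.30 in rep 1 and 2.60 in rep 2, against 0.69 and 0.38 in PLA 1 h, and monocyte markers at -1.43 and 0.81, against 0.18 and 0.12. The 2 ANE 1 h arrays thus lay on opposite sides of PLA 1 h for the neutrophil and monocyte lists and on 1 side for the erythroid list. Fewer cells of a type and less RNA per cell cannot be told apart in such bulk samples, and the part of cell make-up in this difference was not tested. Without the 4 arrays of high platelet markers, ANE 1 h rep 2 and PLA 1 h rep 1 were the only arrays left, assumed to vary like the rest, and 6 of the 21 were called (3.79% of all probe sets): Pde4d 1368750_a_at and 1370569_at, Nr4a3 1369067_at and Crem 1369737_at, 1378925_at and 1393550_at. Without PLA 1 h rep 1 alone, 4 in place of 8 passed the thresholds of the study and 0 were called. Without ANE 1 h rep 2 alone, 3 were called (1.15% of all probe sets).

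The 34 d groups, made up of other rats, repeated the comparison. In ANE 34 d 18 of 21 probe sets were lower than in PLA 34 d, 15 with no overlap, against 24% of all probe sets lower with no overlap, and 0 were higher with no overlap, against 21.9%. Of the members, 13 were lower with no overlap at both times, 13 of the 14 at 1 h and 13 of the 15 at 34 d. Over all probe sets 38.5% of those lower with no overlap at 1 h were so at 34 d, and 23.9% of those at 34 d were so at 1 h. B cell markers were higher with no overlap in ANE 34 d, at 0.21 and 0.66 against -0.26 and -0.46 in PLA 34 d, and NK cell markers lower, at 0.08 and -0.12 against 0.49 and 0.15, and their part was not tested. The median difference was -0.51, with the median of all probe sets at 0 to 2 decimals. limma called 0 members, as it called 0% of all probe sets. At an unadjusted p under 0.05 stood 3 members (3.07% of all probe sets), and 2 passed the thresholds of the study, both lower (0.232% of all probe sets). These were Nr4a3 1369067_at, with 5.78 and 6.10 in ANE 34 d and 6.97 and 7.34 in PLA 34 d (-1.22 ± 0.50, adjusted p = 1), and Crem 1396545_at, with 7.64 and 7.52 in ANE 34 d and 8.89 and 8.59 in PLA 34 d (-1.16 ± 0.51, adjusted p = 1). Leaving out any of the 4 arrays left 0 or 1 of these past the thresholds.

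The change from 1 h to 34 d was not shown to differ between ANE and PLA. The difference of the changes was 1.41 ± 0.53 for Crem 1393550_at, 1.41 ± 0.62 for Pde4d 1392968_at, 1.31 ± 0.59 for Crem 1369737_at and 1.30 ± 0.57 for Crem 1378925_at, each with an adjusted p of 1. These 4 passed the thresholds of the study (0.909% of all probe sets higher), while limma called 0 members and 0% of all probe sets. Within ANE alone, Pde4d 1392968_at was 8.70 and 8.86 at 34 d and 6.94 and 7.84 at 1 h (1.39 ± 0.44, adjusted p = 0.962), and Crem 1393550_at differed by 1.09 ± 0.38 (adjusted p = 0.987).

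**Figure D3:**
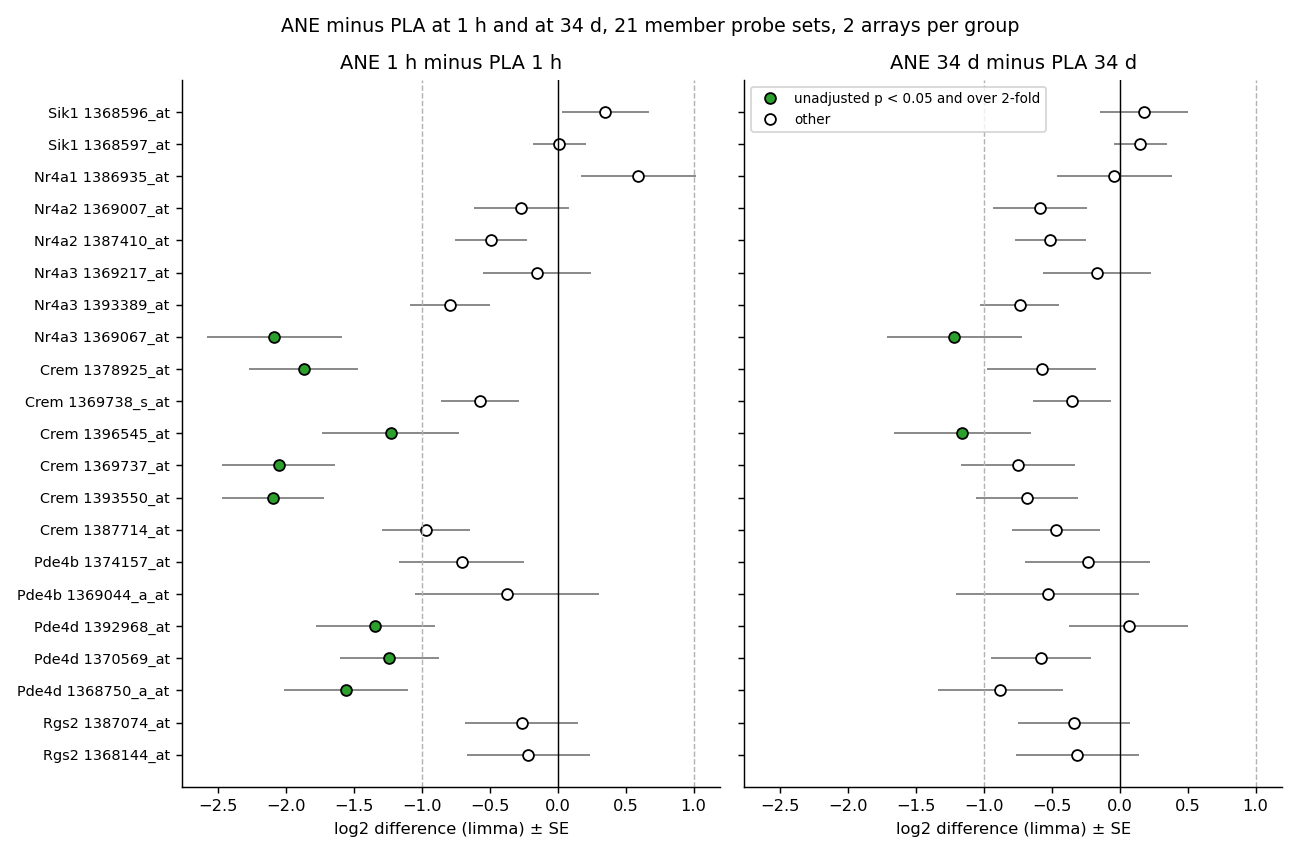
Difference of ANE minus PLA in log2 expression with its SE (horizontal axis) for each of the 21 probe sets (vertical axis), at 1 h on the left and at 34 d on the right. Filled points passed an unadjusted p under 0.05 and a 2-fold change, 8 at 1 h and 2 at 34 d, all lower in ANE, and 0 were called.

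Against CIA rats before therapy, ANE 1 h rats again had the low readings. Of the 19 probe sets tested here (Sik1 being left out at baseline), 6 passed the thresholds of the study, all lower, against 1.63% of all probe sets lower. They were Crem 1393550_at (-1.79 ± 0.38), 1378925_at (-1.53 ± 0.40), 1369737_at (-1.52 ± 0.42) and 1396545_at (-1.15 ± 0.51) and Pde4d 1392968_at (-1.46 ± 0.44) and 1368750_a_at (-1.13 ± 0.46). limma called 0 (0.0338% of all probe sets). Of the 19, 7 had an unadjusted p under 0.05 (10.8%) and the lowest adjusted p was 0.175, while 2 were called without the 4 arrays of high platelet markers (5.08%). At 34 d no member of ANE differed from CIA baseline by over 2-fold.

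Nr4a3 1369067_at was higher than in CIA baseline rats (5.86 and 5.98) in the other arms at both times. It read 6.86 and 8.15 in MS 1 h (1.59 ± 0.50, adjusted p = 0.550), 7.25 and 7.67 in MTX 1 h (1.54 ± 0.50, adjusted p = 1) and 7.55 and 6.95 in PLA 1 h (1.33 ± 0.50, adjusted p = 0.676). At 34 d it read 7.26 and 7.42 in MTX (1.42 ± 0.50, adjusted p = 0.684) and 6.97 and 7.34 in PLA (1.24 ± 0.50, adjusted p = 0.976). In MS 34 d it read 6.04 and 7.09, a difference that passed neither threshold. Each of these arms is set against the same 2 CIA baseline arrays. Probe set 1393389_at passed the thresholds of the study in MS 1 h (1.37 ± 0.29) and MTX 34 d (1.11 ± 0.29), again with no call. Of all probe sets, 0.614% in MS 1 h, 0.377% in MTX 1 h, 0.71% in PLA 1 h, 0.155% in MTX 34 d and 0.329% in PLA 34 d passed these thresholds with a higher level. limma called 0 members in these 5 comparisons. Of all probe sets it called 0.00967% in MS 1 h, 0.0145% in MTX 1 h and 0% in the others. Pde4b 1369044_a_at was higher in MTX 1 h (9.23 and 9.32) than in CIA baseline (8.05 and 8.22) by 1.13 ± 0.67 and than in PLA 1 h (8.71 and 7.79) by 1.02 ± 0.67, and neither difference had an unadjusted p under 0.05.

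In MS 34 d rats another group of members was low. Against PLA 34 d, 6 of 21 passed the thresholds of the study, all lower (3.04% of all probe sets lower), 11 were lower with no overlap (32.8%) and the median difference was -0.47, against -0.15 over all probe sets. Pde4b differed by -1.72 ± 0.67 at 1369044_a_at and -1.20 ± 0.46 at 1374157_at, Rgs2 by -1.35 ± 0.45 at 1368144_at and -1.25 ± 0.41 at 1387074_at, Nr4a1 by -1.14 ± 0.42 and Nr4a2 1369007_at by -1.03 ± 0.35. limma called 0 of these and 0% of all probe sets, with 7 members at an unadjusted p under 0.05 (23.2%) and a lowest adjusted p of 0.179. The readings turned on 1 array. Rgs2 1387074_at was 9.95 and 11.31 in MS 34 d and 11.97 and 11.80 in PLA 34 d, and without MS 34 d rep 1 its difference was -0.57. Without that array 0 members passed the thresholds, whereas without rep 2, 7 were called, as were 39.2% of all probe sets, a share no lower than that of the members. Nr4a2 1369007_at depended on it least, with 6.55 and 6.69 in MS 34 d and 7.69 and 7.60 in PLA 34 d, and -0.95 without rep 1.

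T cell markers stood at -1.71 and -0.25 in MS 34 d against 0.12 and 0.06 in PLA 34 d, platelet markers at 1.30 and 0.47 against -0.33 and -0.66, and monocyte markers at -1.15 and -0.06 against 0.50 and 0.45. The array that decided the member values, rep 1, was thus also the one farthest from PLA 34 d in these 3 lists. B cell, NK cell and neutrophil markers were lower with no overlap too, and the part of cell make-up was not tested. Against CIA baseline, Rgs2 and Nr4a2 were low in MS 34 d, with Rgs2 at -1.29 ± 0.45 and -1.25 ± 0.41 and Nr4a2 1369007_at at -1.02 ± 0.35 past the thresholds of the study (8.63% of all probe sets lower). limma called 0 of 19 there (6.96% of all probe sets), with a lowest adjusted p of 0.0647 and 4 at an unadjusted p under 0.05 (37.1%). Without MS 34 d rep 1 no member passed the thresholds of the study there, and without rep 2, 3 were called, against 48.1% of all probe sets. Sik1 1368596_at was 7.51 and 8.64 in MS 34 d and 9.33 and 9.02 in CIA baseline, a difference of -1.10, or -0.54 without rep 1. In MS 1 h, Rgs2 1368144_at (9.26 and 11.06) differed from CIA baseline (11.31 and 11.19) by -1.09 ± 0.45, past the thresholds of the study (1.38% of all probe sets lower), and by -0.19 without rep 1. Within MS, Nr4a3 1369217_at read 6.21 and 6.86 at 34 d and 6.89 and 8.25 at 1 h (-1.03 ± 0.40, adjusted p = 0.636).

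In healthy rats the single member call was made. Nr4a3 1393389_at read 7.71 and 7.18 in NOCIA 34 d and 5.69 and 6.43 in NOCIA 1 h rats, a rise of 1.38 ± 0.29 (adjusted p = 0.0230), where limma called 2.68% of all probe sets. Nr4a3 1369067_at, with 8.11 and 7.42 in NOCIA 34 d and 5.18 and 6.62 in NOCIA 1 h, differed by 1.87 ± 0.50 (adjusted p = 0.0571). Pde4d 1368750_a_at differed by 1.28 ± 0.46 (adjusted p = 0.146), and these 3 were the members past the thresholds of the study (2.45% of all probe sets higher). Nr4a3 did not rise at 1369217_at, which read 7.03 and 6.79 in NOCIA 34 d and 7.51 and 6.99 in NOCIA 1 h. Its mean was lower at 34 d and its groups overlapped. The call rested on each of 3 arrays, with a difference of 1.01 without NOCIA 1 h rep 1 (adjusted p = 0.288), 1.12 without NOCIA 34 d rep 1 (adjusted p = 0.291) and 1.65 without NOCIA 34 d rep 2 (adjusted p = 0.0525). NK cell markers stood at -1.09 and -0.79 in NOCIA 34 d and at 1.27 and -0.42 in NOCIA 1 h, B cell markers at -0.69 and -0.59 against 0.45 and 0.19, and T cell markers at -0.00 and -0.40 against 0.62 and 0.02. All 3 lists were lower with no overlap, and platelet markers higher, at 0.02 and 0.17 in NOCIA 34 d against -0.51 and -0.06 in NOCIA 1 h. Nr4a3 1393389_at correlated with the B cell list at r = -0.47 over the 24 arrays, and the part of cell make-up was not tested. Without the 4 arrays of high platelet markers, none of which is in these groups, 8 members were called (20.2% of all probe sets), among them both Pde4b probe sets.

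Against NOCIA baseline most members were higher in the other healthy groups and in CIA baseline. No test is given, since Sik1 was chosen by its level there and the other genes with results of these arrays known. All 3 contrasts also share the 2 NOCIA baseline arrays. B cell markers stood at 0.33 and 0.31 in CIA baseline and at -0.69 and -0.59 in NOCIA 34 d, against 0.85 and 0.90 in NOCIA baseline, their highest levels in the 24 arrays. NOCIA baseline rep 2 also had the largest 3′ minus 5′ difference of the 24 arrays for the beta-actin (0.845) and GAPDH (0.199) RNA controls, and the part of either was not tested. Nr4a3 1369067_at lay below the 40th percentile in NOCIA baseline (3.94 and 3.90), so the sizes of its differences below rest on a reading not shown to be above background. In CIA baseline 18 probe sets were higher and 2 lower with no overlap (28.6% and 23.1% of all probe sets). Nr4a3 1369067_at was higher by 2.00, Crem by 1.04 to 1.13 at 3 probe sets and Pde4d 1368750_a_at by 1.21. In NOCIA 34 d 10 probe sets were higher by over 2-fold (5.9% of all probe sets), up to 3.85 at Nr4a3 1369067_at, and Sik1 1368597_at differed by -3.63. In NOCIA 1 h the same Sik1 probe set differed by -3.42. Nr4a3 1369067_at was higher there by 1.98, a value of 1.26 without NOCIA 1 h rep 2 and of 2.70 without rep 1. PLA 1 h exceeded NOCIA 1 h at Nr4a3 1369067_at by 1.35 ± 0.50 (adjusted p = 0.966).

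Some members varied together across arrays. Nr4a3 1369067_at correlated with Crem 1393550_at at r = 0.76 and with Pde4d 1368750_a_at at r = 0.86, Crem 1369737_at with Pde4d 1370569_at at r = 0.91, and these values were 0.74, 0.83 and 0.90 without the NOCIA baseline arrays. Sik1 1368596_at correlated with Nr4a1 at r = 0.83 and with Rgs2 1387074_at at r = 0.82, and Nr4a1 with Rgs2 1387074_at at r = 0.85. Between the genes of these 2 sentences r had either sign. For Nr4a3 1369067_at it was 0.01 with Rgs2 1387074_at and -0.28 with Nr4a1. It was -0.38 for Crem 1369738_s_at with Nr4a1, but 0.56 for Crem 1387714_at with Rgs2 1368144_at. Pde4b 1369044_a_at reached r = 0.76 with Crem 1396545_at and r = 0.72 with Rgs2 1368144_at. With other probe sets named here its r was lower, at 0.26 for Crem 1369738_s_at and 0.48 for Crem 1393550_at. It was 0.29 with Pde4d 1368750_a_at and 0.43 with Nr4a3 1369067_at. All points share one normalization, 12 groups and the cell make-up of their array, so r is a description over 24 arrays.

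**Figure D4:**
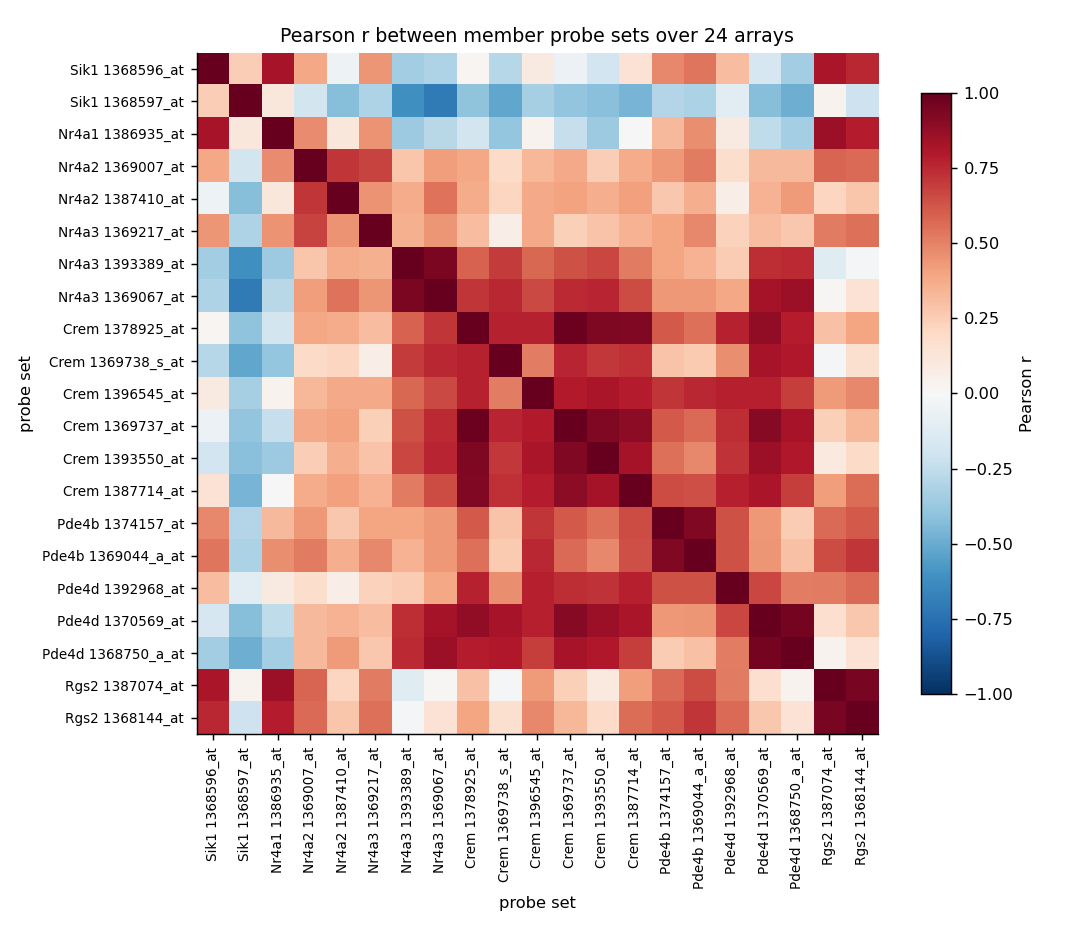
Pearson r over 24 arrays for each pair of the 21 member probe sets (both axes), on a color scale from -1 to 1. Crem, Pde4d and Nr4a3 at 1393389_at and 1369067_at form a red block, Sik1 1368596_at, Nr4a1 and Rgs2 form another, and Sik1 1368597_at is negative with Nr4a3 1369067_at (r = -0.71).

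Several members varied with markers of cell types. Rgs2 1387074_at correlated with the T cell marker level at r = 0.89, Sik1 1368596_at at r = 0.87 and Nr4a1 at r = 0.78, and with the platelet marker level these 3 gave r = -0.76, -0.75 and -0.63. MS 1 h rep 1 and MS 34 d rep 1 were the farthest from the median of both lists. Over the other 22 arrays the values were 0.64, 0.58 and 0.39 with T cell markers and -0.60, -0.55 and -0.27 with platelet markers, and Rgs2 1368144_at gave r = 0.34 with T cell markers, against 0.81 over 24. Nr4a1 gave r = 0.69 with monocyte and 0.65 with NK cell markers, each without the 2 arrays farthest in that list. With the T cell list Nr4a3 1369067_at gave r = -0.13 and Crem 1393550_at r = -0.01 over 24 arrays. With the B cell list r was -0.47 for Nr4a3 1369067_at, -0.56 for Pde4d 1368750_a_at and -0.48 for Crem 1369738_s_at. Without the 2 MS 34 d arrays, the farthest in that list, these were -0.64, -0.62 and -0.70. The Crem and Pde4d values over 24 arrays were the strongest of their genes. The other Crem probe sets lay between -0.29 (1393550_at) and -0.14, the other Pde4d ones at -0.43 and 0.05, and Nr4a3 1369217_at at 0.40. Several members had a positive r, such as Sik1 1368596_at at 0.80 (0.63 without those arrays). The part of cell make-up in these relations was not tested.

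**Figure D5:**
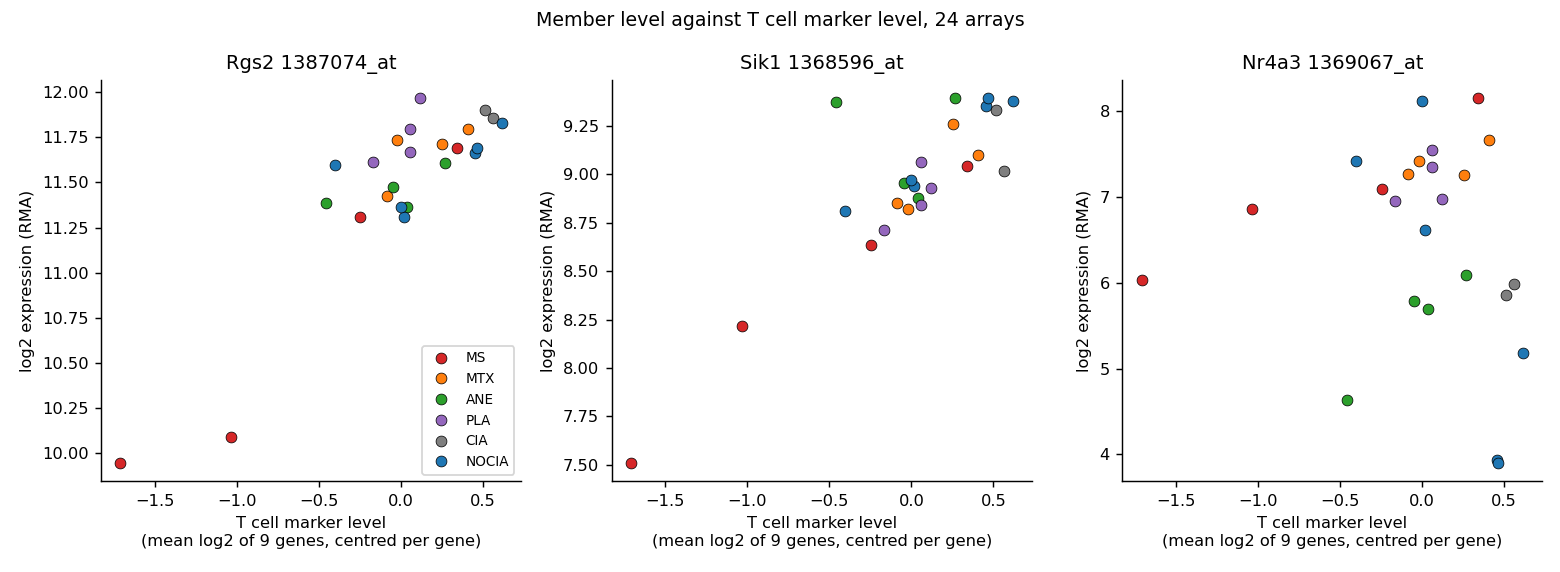
Log2 expression (vertical axes) of Rgs2 1387074_at, Sik1 1368596_at and Nr4a3 1369067_at in 24 arrays against the level of 9 T cell marker genes (horizontal axes, mean of log2 values centred per gene), colored by arm. MS 1 h rep 1 and MS 34 d rep 1 lie at the lower left for Rgs2 (10.09 and 9.95), whereas Nr4a3 shows no such slope (r = -0.13).

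The rest of the pathway showed few calls. Among 6 lists of pathway genes limma called genes in 2 of the tested comparisons, 5 of 61 (8.2%) in MS 34 d against CIA baseline, where 6.96% of all probe sets were called, and 1 of 61 (1.64%) in NOCIA 34 d against NOCIA 1 h, where 2.68% were. In MS 34 d against CIA baseline it called 2 of 7 kinase genes lower, Prkar2a (-1.46 ± 0.25, adjusted p = 0.0186) and the catalytic subunit Prkacb (-1.35 ± 0.24, adjusted p = 0.0221), 1 of 10 other phosphodiesterases higher, Pde1b (0.98 ± 0.21, adjusted p = 0.0294), and 2 of 19 other genes induced through CREB or serum response lower, Egr1 (-2.45 ± 0.43, adjusted p = 0.0213) and Fos (-1.79 ± 0.50, adjusted p = 0.0461). In NOCIA 34 d against NOCIA 1 h it called Prkacb lower (-1.24 ± 0.24, adjusted p = 0.0163). Each of these 6 calls was lost when some of the arrays compared were left out, as Fos was at -1.01 without MS 34 d rep 1 (adjusted p = 0.583). Most differences changed less, with Egr1 at -2.05 (adjusted p = 0.308) and Prkacb at -1.18 (adjusted p = 0.299) without the same array, and Prkacb at -1.08 without NOCIA 1 h rep 1 (adjusted p = 0.217). In ANE 1 h against PLA 1 h, where Crem and Pde4d were low, the list of 19 induced genes had a median of -0.35 with 5 above 0, 0 called, and values from -1.10 for Rgs1 to 1.01 for Egr1. The salt-inducible kinase and CRTC list had a median of -0.08 there and the receptors and cyclases one of -0.16, led by the prostaglandin receptor Ptger2 at -0.72. Protein kinase A and Epac genes had a median of 0.02, other phosphodiesterases one of 0.07 with 7 of 10 above 0, and CREB factors one of 0.15, with 0 called in each of the 5 lists. In ANE 34 d against PLA 34 d the induced genes had a median of -0.31 with 2 of 19 above 0, and in MS 34 d against PLA 34 d one of -0.77 with 0 above 0, against -0.15 over all probe sets.

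The probe sets of other genes most like a member over the 24 arrays were Pdhx (r = 0.96), Il10rb (r = 0.95) and Arhgap27 (r = 0.95) for Sik1 1368596_at, and Ywhag (r = 0.81), Csnk1d (r = 0.79) and Cr2 (r = 0.78) for Sik1 1368597_at. For Nr4a1 they were Acadl and Gusb (r = 0.93 and 0.92), for Nr4a2 1369007_at Dusp5 (r = 0.88), for Nr4a3 1369217_at Brpf3 (r = 0.86) and the prostaglandin receptor Ptger4 (r = 0.84), and for Crem 1378925_at Zbtb21 (r = 0.94). Over the 12 group means Csnk1d came first for Sik1 1368597_at (r = 0.91) and Zbtb21 again for Crem 1378925_at (r = 0.97). These likenesses were picked as the highest of all filtered probe sets and carry no test.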

How the data were processed

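The authors deposited log2 expression values, which the submitters' processing notes credit to RMA and the affy package (versions not given). The study's methods also describe MAS5 intensities. The deposited values ran from 2.18 to 15.02 with array medians of 5.49 to 5.58, as RMA would leave them, so changes of very dim or bright transcripts may be compressed. The 57 control probe sets were left out, and a probe set was tested if it lay over the 40th percentile on 2 or more arrays, which left 20690.

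Differences were fitted in R 4.3.3 with limma 3.58.1 (lmFit and eBayes), with 1 coefficient per group over 24 arrays and 12 residual degrees of freedom. There were 22 comparisons and 3 differences of changes, each with its own Benjamini-Hochberg adjustment. An exact two-sided permutation test of 2 against 2 arrays cannot give a p below 0.333. The number of arrays limits the precision. Members and gene lists were chosen with earlier results of these data known. Differences were named where called, past the thresholds of the study or over 2-fold, with up to 3 genes per pathway list. Alternatives were a replicate block, only the groups compared, no filter, a 60th percentile filter, quantile normalization, array weights, limma-trend with robust eBayes, and fits without each array or without the 4 arrays of high platelet markers. Fits were tested on simulated data. Promoters came from RefSeq (GRCr8), matched by symbol for 7 of the 8 genes, and each pathway or marker gene was read from its probe set of highest mean.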

Additional observations from a re-analysis of the deposited data

How the results depend on the processing

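With 2 arrays per group, single arrays set many of these values, and low signals near the 40th percentile (Nr4a3 1369067_at, Sik1 1368597_at) may be compressed. The number of members called in NOCIA 34 d against NOCIA 1 h (1, 2.68% of all probe sets) became 2 with quantile normalization (5.29%). It became 3 with array weights, which called 2180 of all 20690 probe sets. It became 0 with only the groups compared and 8 without the 4 arrays of high platelet markers (20.2%). Calls over all probe sets rose too where more members were called, so these counts are not read as a result about the members. In ANE 1 h against PLA 1 h (0) the number of members called became 1 with quantile normalization (0.0725% of all probe sets). For ANE 1 h the counts without those 4 arrays are given above. Array weights gave 2 calls against CIA baseline in MTX 1 h (0.565% of all probe sets), MTX 34 d (4.88%) and PLA 34 d (8.33%). They gave 2 in PLA 34 d against NOCIA 34 d (17.2%), a share above that of the members. They gave 1 in MTX 34 d against MTX 1 h (3.43%) and in ANE 34 d against PLA 34 d (0.411%). The main fit called 0 members in each of these comparisons. Only the groups compared gave 2 calls in MTX 1 h (0.227% of all probe sets) and 1 in PLA 34 d (0.628%) against CIA baseline. That setting gave 2 in PLA 34 d against NOCIA 34 d (11.7%), again a share above that of the members. Without the 4 arrays, members past the thresholds of the study numbered 1 in MS 34 d against CIA baseline (3 with all arrays) and 1 in MS 34 d against PLA 34 d (6 with all arrays).

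Leaving out 1 array at a time, the number called ran from 0 to 4 in MS 1 h, 0 to 1 in ANE 1 h and 0 to 3 in MS 34 d against CIA baseline, from 0 to 2 in MS 34 d against MS 1 h, 0 to 1 in ANE 34 d against ANE 1 h, 0 to 3 in NOCIA 34 d against NOCIA 1 h, 0 to 3 in ANE 1 h against PLA 1 h, 0 to 7 in MS 34 d against PLA 34 d and 0 to 5 in MS 34 d against MTX 34 d. The highest counts of MS came from fits that called 18.8% of all probe sets in MS 1 h and 48.1% in MS 34 d against CIA baseline, 39.2% in MS 34 d against PLA 34 d and 34.7% in MS 34 d against MTX 34 d, near or above the share of members, and those of ANE 1 h, ANE 34 d and NOCIA 34 d from fits that called 0.909% to 3.66%. The highest count called in MS 34 d against MS 1 h came with a share of all probe sets above that of members. The number past the thresholds of the study also moved with the array left out, in MS 34 d and ANE 1 h against CIA baseline. It did so too in NOCIA 34 d against NOCIA 1 h, and in ANE 1 h, MS 34 d and ANE 34 d against PLA. The share of all probe sets is not given for these fits, so such counts are not read as a result about the members. Members over 2-fold in NOCIA 1 h against NOCIA baseline ran from 2 to 9. Where an array was left out, the remaining array of its group was assumed to vary like those of the other groups. The cause of these changes was not tested.

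The replicate numbers of the labels do not name a shared animal or batch. Over all tested probe sets the difference of rep 1 and rep 2 in one group correlated with that in another at -0.76 to 0.80 over 25 comparisons, 12 of them above 0.1. With the replicate number as a block, 1 member was called in NOCIA 34 d against NOCIA 1 h and 0 in ANE 1 h against PLA 1 h, with 8 past the thresholds of the study there, the same counts as without the block. The block, no filter, the stricter filter (14662 probe sets) and limma-trend changed no call of a member, and no named difference turned its sign under any alternative. Between arms, 15 differences of changes were tested for each member, 12 of them added after values were seen. Of 315 such tests 0 were called by limma, with a lowest adjusted p of 0.0942. An unadjusted p under 0.05 (limma) was reached in 55 of them, and the share of all probe sets is not given for these tests. Direct comparisons of arms are not among the 315, and ANE 1 h against PLA 1 h had a lower adjusted p (0.0848, limma).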
